A study of Mus musculus with 6 samples.

Results

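Irf1, Irf7, Irf9, Stat2, Isg15, Ifit1, Ifit3, Oasl2 and Rsad2 are 9 genes of the interferon response, chosen by symbol from the 55341 genes of the deposited read-count table. All 9 passed the filter on low counts that left 16017 genes for testing. They were compared in the aorta of knock-out (miRNA-26b-/-) and wild type (miRNA-26b+/+) mice, 3 in each group, aged 8 weeks and fed a chow diet. The miRNA-26b-/- line carries a deletion within an intron of Ctdsp1 that removes both arms of miRNA-26b, made from a floxed allele with tamoxifen and a CreERT2 line that was bred out afterwards, and the labels give the strain of both groups as C57BL/6NCrl. The line was founded with R1/E embryonic stem cells of 129/Sv origin, and the study's methods put all mice on the C57BL/6 background. Libraries M2626, M2627 and M2628 are knock-out and M2629, M2630 and M2631 are wild type, called naive in the labels, with 1 library per mouse. Nothing in the labels beyond the library names separates the mice, so p-values measure the spread between these libraries.

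Interferons are secreted proteins, and cells release those of type I when their sensors detect foreign or misplaced nucleic acid. The type I interferon receptor signals through the kinases Jak1 and Tyk2 to a complex that holds Stat2 and Irf9 and binds the interferon-stimulated response element (ISRE) in the promoters of many stimulated genes. Interferon gamma acts on its own target genes through the gamma-activated site (GAS), as in the promoter of Irf1. The products of the stimulated genes block translation of viral RNA, modify proteins or feed back on the pathway, and many cells of the vessel wall hold a low basal level of them without infection.

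The promoter windows show which genes carry the letters of these elements. RefSeq promoters of GRCm38.p6, from 250 bases before to 50 bases after the transcription start, were found for all 9 genes, with a pair of windows each for Irf1 and Irf9. The ISRE core, GAAANNGAAA on either strand, occurred in the windows of 5 of the 9 genes (Stat2, Isg15, Ifit1, Ifit3 and Rsad2) and in 3.44% of all 32851 promoter windows. The GAS motif, TTCNNNGAA, occurred in 1 of the 9 genes (Irf1) and in 8.30% of all windows. The stretches around these matches are given 5′ to 3′ on the strand of the gene, with the matched letters in capitals and overlapping matches merged. They match the letters of the elements described above, and binding to them was not measured.
Isg15, chr4:156200860-156200911, reverse strand: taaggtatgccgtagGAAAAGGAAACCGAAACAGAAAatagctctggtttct
Ifit1, chr19:34640770-34640828, forward strand: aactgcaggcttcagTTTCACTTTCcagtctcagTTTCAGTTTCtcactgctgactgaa
Ifit3, chr19:34583358-34583431, forward strand: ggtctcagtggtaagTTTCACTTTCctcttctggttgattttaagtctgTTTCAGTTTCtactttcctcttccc
Rsad2, chr12:26456548-26456587, reverse strand: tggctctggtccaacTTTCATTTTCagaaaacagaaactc
Stat2, chr10:128270261-128270300, forward strand: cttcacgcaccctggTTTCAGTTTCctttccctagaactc
Irf1 (GAS), chr11:53769909-53769947, forward strand: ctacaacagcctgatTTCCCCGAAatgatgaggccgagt
Isg15 had 3 overlapping matches between 78 and 57 bases before its start, Ifit1 had 2 between 104 and 76 bases, and Ifit3 had 2 between 156 and 113 bases. No match was found in the windows of Irf7, Irf9 and Oasl2, which says only that these letters are not in those windows.

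A miRNA pairs with its targets mainly through its seed, bases 2 to 8. The 3′ UTRs of the 9 genes were searched for the letters that match the seed of the 5p arm of miRNA-26b. The seed of the 3p arm, which the deletion also removes, was not searched. The mature sequence of the 5p arm, on chromosome 1 from 74394324 to 74394344 of GRCm38.p6, is shown with the seed in capitals.
mmu-miR-26b-5p: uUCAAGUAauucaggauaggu
The seed match TACTTGA occurred in the longest annotated 3′ UTR of 0 of the 9 genes, against 9.96% of 21153 genes, and so did the longer match TACTTGAA, against 4.30%. The 3′ UTRs of the 9 genes were between 160 and 3613 bases long, and the median over all genes was 1084 bases.

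The labels describe the samples as endothelial cells of the aorta, while the study's methods describe whole aortic arch and thoracic aorta. Levels are given as CPM, the counts of a gene scaled to the normalized library total. Totals per library were between 25706728 and 33345037 counts. Summed over 4 smooth muscle markers, the level was between 29138 and 39308 CPM in the 6 libraries, and over 6 endothelial markers it was between 388 and 1546 CPM, which is the pattern of a whole vessel. The endothelial sum was lowest in M2626 (388 CPM) and M2627 (423 CPM) and highest in M2628 (1546 CPM), all knock-out, and lay between 1063 and 1465 CPM in the wild type libraries. The macrophage sum over 6 markers had the same order among the knock-out libraries, with 248, 313 and 732 CPM, and lay between 439 and 504 CPM in the wild type libraries. Of all the marker lists examined, the groups did not overlap for 2, while they did not overlap for 11.5% of all single genes tested. The sum over 4 Schwann cell markers was between 70.3 and 141.9 CPM in knock-out and between 16.6 and 46.4 CPM in wild type libraries. Of these 4 markers, 3 had an unadjusted p-value under 0.05 (edgeR), against 6.47% of all genes tested. The sum over 3 neutrophil markers was at most 3.04 CPM in knock-out and between 4.37 and 13.4 CPM in wild type libraries. Of these 3 markers, 1 (S100a9) had such a p-value, and Retnlg did not pass the filter on low counts. The sums of sympathetic neuron and skeletal muscle markers overlapped between the groups, and 2 of 3 markers in each list had such a p-value. Among them Mylpf had 0 counts in every wild type library and passed the filter only through the knock-out libraries. The part of these cell types in the results was not tested, and in bulk samples fewer cells of a type and less RNA per cell cannot be told apart. Plasmacytoid dendritic cell markers, those of the main interferon-producing cell of the blood, summed to at most 6.19 CPM in any library.

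None of the 9 genes passed the test of a difference between the genotypes. With edgeR's quasi-likelihood test, 0 of 9 had an adjusted p-value under 0.05, against 0.00624% of all genes tested (1 gene), and 0 of 9 had an unadjusted p-value under 0.05, against 6.47% (1036 genes). The latter count was 0 with DESeq2 and 1 with limma voom, where Ifit3 had an unadjusted p-value under 0.05. All 4 regulators (Irf1, Irf7, Irf9 and Stat2) and 2 of the 5 stimulated genes were lower in knock-out mice by their fitted log2 fold change, and Ifit3, Oasl2 and Rsad2 were higher. The median log2 fold change was -0.24 over the 9 genes and 0.01 over all genes tested. The groups did not overlap for 1 of the 9 genes, Irf9, against 11.5% of all genes tested. With 3 libraries in each group, the exact permutation test of a single gene, two-sided, cannot give a p-value under 0.1.

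**Figure D1:**
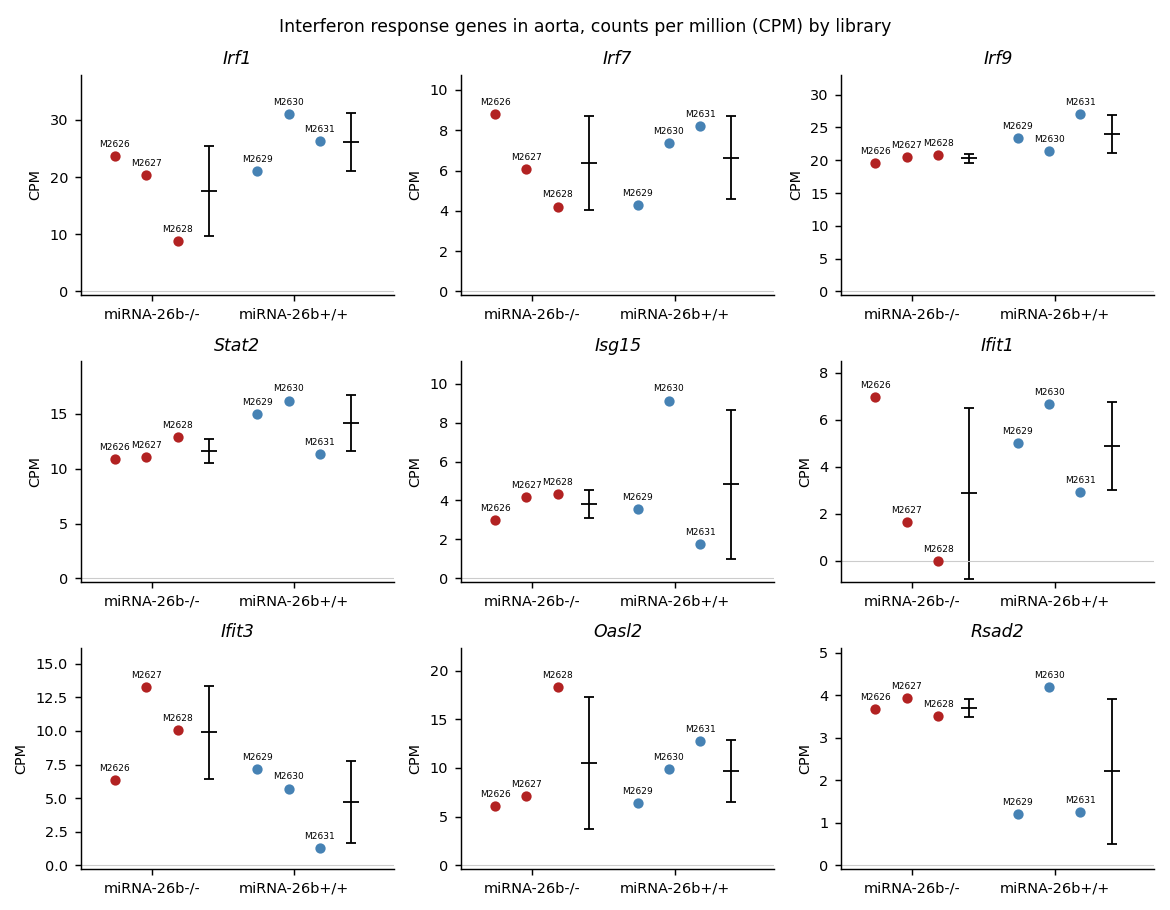
Level of each gene in CPM (vertical axis) in each library, with the mean and SD of each genotype in black (3 libraries each). The knock-out libraries overlap the wild type libraries in every panel except Irf9, where the highest knock-out library has 20.9 CPM and the lowest wild type library 21.5 CPM.

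Irf1 (ENSMUSG00000018899, chromosome 11 of GRCm38 from 53770014 to 53778374, forward strand) encodes a transcription factor that interferon gamma induces and that activates antiviral and antigen presentation genes. Its counts were 606, 686 and 247 in M2626, M2627 and M2628, and 644, 854 and 797 in M2629, M2630 and M2631. M2628 stood far below the other 5 libraries, and M2626 and M2627 lay close to M2629, so the groups overlapped. This was 17.6 ± 7.84 CPM for the knock-out and 26.1 ± 5.05 CPM for the wild type group (SD, n = 3 each). The log2 fold change was -0.57 (standard error 0.330, 95% confidence interval -1.27 to 0.14), which did not pass (adjusted p = 0.813, edgeR; exact permutation p = 0.2). With single libraries left out it ran from -0.80, without M2626, to -0.25, without M2628.

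Part of the Irf1 reads is shared with Gm17334 (ENSMUSG00000091191), a gene of 1 exon annotated on the opposite strand inside Irf1, from 53772281 to 53773187. The exons have 135 bases in common, 3.40% of the exon bases of Irf1 and 14.9% of those of Gm17334, and the remaining bases of Gm17334 lie within introns of Irf1. Counting did not use strand, and a read over both genes was counted for each, so the reads cannot be assigned to a strand. Gm17334 had 0, 0 and 1 counts in the knock-out libraries and 60, 145 and 47 in the wild type libraries. It was at least 28.6-fold lower in knock-out mice when the mean wild type level is set against a floor of 3 counts in a library of average size. It passed the filter on low counts only through the wild type libraries, so no test of it is given. Its counts came to between 5.90% and 17.0% of the Irf1 counts in the wild type libraries and to at most 0.405% in the knock-out libraries. Irf1 less every read of Gm17334 left 606, 686 and 246 counts against 584, 709 and 750, so the 3 wild type libraries then spanned the level of M2626 and M2627, and M2628 stayed low. This is the largest correction possible, as only 14.9% of the Gm17334 bases lie in exons of Irf1. How many of its reads were counted for Irf1 is not known.

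**Figure D2:**
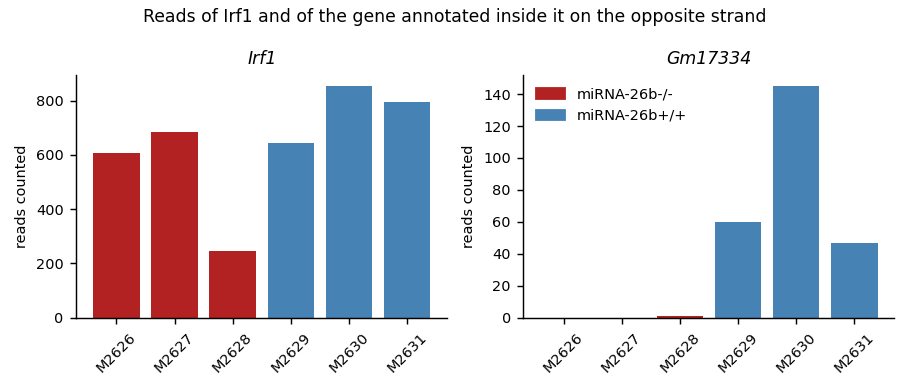
Reads counted for Irf1 (left) and for Gm17334, the gene inside it on the opposite strand (right), in each library (horizontal axis), coloured by genotype. Gm17334 has 0, 0 and 1 reads in the knock-out libraries and between 47 and 145 in the wild type libraries, while Irf1 is low in M2628 alone.

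Irf7 (ENSMUSG00000025498, chromosome 7, 141262706 to 141266481, reverse strand) encodes the factor that drives expression of most interferon alpha genes and is itself stimulated by interferon. It had 226, 204 and 119 counts in the knock-out libraries and 132, 203 and 249 in the wild type libraries. One library of each genotype, M2628 and M2629, was low, and the ranges of the groups nearly coincided. The means of 6.37 ± 2.32 and 6.64 ± 2.07 CPM (SD, n = 3 each) gave a log2 fold change of -0.07 (95% confidence interval -1.12 to 0.98, adjusted p = 0.993, edgeR), whose sign turned without M2628 (0.14), M2630 (0.01) or M2631 (0.12). Irf7 shares 45 exon bases, 1.19% of its own, with Phrf1 on the opposite strand.

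Irf9 (ENSMUSG00000002325, chromosome 14, 55603571 to 55610030, forward strand) encodes the DNA-binding subunit of the complex with Stat2. Its counts of 501, 689 and 589 against 716, 590 and 820 corresponded to 19.6, 20.5 and 20.9 CPM in knock-out and 23.3, 21.5 and 27.1 CPM in wild type libraries. Every knock-out library was below every wild type library, by a gap of less than 1 CPM at the closest pair (M2628 and M2630). Irf9 was also the steadiest of the 9 genes, with a ratio of 1.39 between its highest and lowest library. The log2 fold change of -0.24 (standard error 0.256, 95% confidence interval -0.79 to 0.31) did not pass the test (adjusted p = 0.931, edgeR), and the exact permutation p-value was 0.1, the smallest the design allows. Irf9 shares 123 exon bases, 2.28% of its own, with Rnf31 on the same strand. Rnf31, a subunit of a ubiquitin ligase, also had groups that did not overlap, with a log2 fold change of -0.54 (standard error 0.277, unadjusted p = 0.0718, edgeR), and the part of the shared reads was not tested.

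Stat2 (ENSMUSG00000040033, chromosome 10, 128270559 to 128292849, forward strand) encodes the transactivating subunit of the same complex. It had 280, 371 and 364 counts in the knock-out libraries and 460, 446 and 343 in the wild type libraries. M2629 and M2630 were above the other 4 libraries, among which M2631 lay within the range of the knock-out group. Its level of 11.6 ± 1.10 CPM against 14.2 ± 2.55 CPM (SD, n = 3 each) gave a log2 fold change of -0.28 (95% confidence interval -0.999 to 0.430, adjusted p = 0.934, edgeR). It stayed negative in all 15 alternative settings, between -0.43 and -0.18.

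Among the stimulated genes, Ifit3 (ENSMUSG00000074896, chromosome 19, 34583531 to 34588731, forward strand) had the largest positive difference of the 9 genes. It encodes a member of the IFIT family of RNA-binding proteins and acts together with Ifit1. It had 163, 445 and 285 counts in M2626, M2627 and M2628, and 219, 157 and 38 in M2629, M2630 and M2631. M2627 and M2628 were above every wild type library, M2631 was far below the other 5, and M2626 lay between the wild type libraries. The means were 9.90 ± 3.45 and 4.70 ± 3.07 CPM (SD, n = 3 each), and the log2 fold change was 1.11 (standard error 0.536, 95% confidence interval -0.03 to 2.26). The unadjusted p-value was 0.0557 and the adjusted p-value 0.769 (edgeR). In 3 of the 15 alternatives the unadjusted p-value fell below 0.05, namely limma voom (0.0450, log2 fold change 1.41), without M2626 (0.0366, 1.33) and without M2629 (0.0380, 1.58). Without M2631 the log2 fold change was 0.64, and the adjusted p-value was at least 0.520 over the alternatives.

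Ifit3 has a near copy, Ifit3b (ENSMUSG00000062488), on the same strand of chromosome 19 from 34607970 to 34613401. Of the 1721 stretches of 25 bases in the Ifit3 transcript, 1138 (66.1%) also occur in that of Ifit3b. Counting set no option to keep reads with several alignments, so reads that aligned equally to both genes were not counted. How many reads of either gene were left out is not known. Ifit3b had 69, 64 and 129 counts against 9, 54 and 58, a log2 fold change of 1.13 (standard error 0.824, unadjusted p = 0.190, edgeR). The share of Ifit3b in the counted reads of the pair varied between 3.95% in M2629 and 60.4% in M2631. The sums of both genes were 232, 509 and 414 counts in the knock-out libraries and 228, 211 and 96 in the wild type libraries.

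Ifit1 (ENSMUSG00000034459, chromosome 19, 34640871 to 34650009, forward strand), whose protein binds RNA with a foreign cap structure, had 178, 56 and 0 counts in the knock-out libraries and 154, 183 and 89 in the wild type libraries. M2626 was the highest library of all in CPM (6.95) and M2628, of the same genotype, had no read of the gene, where 3 counts correspond to 0.106 CPM. The means of 2.87 ± 3.63 and 4.87 ± 1.86 CPM (SD, n = 3 each) gave a log2 fold change of -0.84 (standard error 0.795, 95% confidence interval -2.54 to 0.85, adjusted p = 0.914, edgeR). It ran from -0.28, without M2628, to -2.41, without M2626, where the unadjusted p-value was 0.0347, and was -2.96 with limma voom. Other genes at this level also had a library at 0. Of 1823 genes tested with a mean within 1.5-fold of that of Ifit1, 231 (12.7%) had no read in at least 1 library. In M2628, the library with the fewest genes detected (17744), 98 (5.38%) had none.

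Isg15 (ENSMUSG00000035692, chromosome 4, 156199424 to 156200818, reverse strand) encodes a ubiquitin-like protein that is attached to other proteins after interferon. It had 77, 140 and 122 counts against 110, 251 and 54. The highest and the lowest library, M2630 with 9.13 CPM and M2631 with 1.78 CPM, were both wild type, and the knock-out libraries lay between them. The level was 3.83 ± 0.719 CPM in knock-out and 4.83 ± 3.83 CPM in wild type mice (SD, n = 3 each). The log2 fold change of -0.28 (95% confidence interval -1.66 to 1.10, adjusted p = 0.975, edgeR) turned to 0.53 without M2630 and to 0.04 with limma voom.

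Rsad2 (ENSMUSG00000020641, chromosome 12, 26442746 to 26456452, reverse strand) encodes viperin, an antiviral enzyme that makes a chain-terminating nucleotide. It had 94, 132 and 99 counts against 37, 115 and 38. M2630 was level with the knock-out libraries, and M2629 and M2631 were well below them. Within knock-out the level was nearly constant (3.70 ± 0.214 CPM), whereas in wild type it was 2.22 ± 1.71 CPM (SD, n = 3 each). The log2 fold change was 0.79 (standard error 0.708, 95% confidence interval -0.72 to 2.29, adjusted p = 0.906, edgeR). It was positive in all 15 alternatives, between 0.484 and 1.596, the latter without M2630.

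Oasl2 (ENSMUSG00000029561, chromosome 5, 114896936 to 114912234, forward strand) encodes a protein related to the 2′-5′ oligoadenylate synthetases, which sense double-stranded RNA. It had 155, 238 and 516 counts against 197, 271 and 386. M2628 was the highest library and M2626 the lowest, so both ends of the range were knock-out. The level was 10.5 ± 6.78 CPM against 9.68 ± 3.17 CPM (SD, n = 3 each), and the log2 fold change was 0.11 (95% confidence interval -0.90 to 1.12, adjusted p = 0.991, edgeR). The sign turned without M2628 (-0.54), without M2629 (-0.12) and with limma voom (-0.01).

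**Figure D3:**
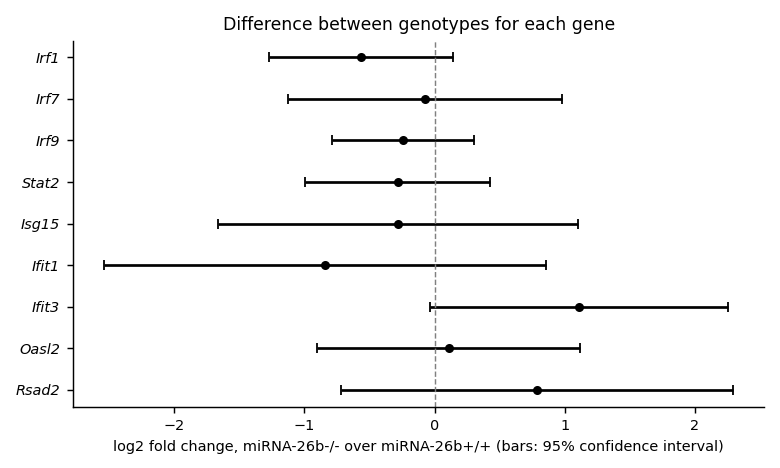
Log2 fold change of knock-out over wild type mice for each gene (horizontal axis), with the 95% confidence interval from edgeR as bars. Every interval includes 0, the one nearest to leaving it out being that of Ifit3 (-0.03 to 2.26), and the interval of Irf9 is the narrowest.

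The 9 genes did not rise and fall together over the libraries. In M2628 Irf1, Irf7 and Ifit1 were each at their lowest of the 6 libraries, while Oasl2 was at its highest. M2630 held the highest level of 4 genes (Irf1, Stat2, Isg15 and Rsad2) and the lowest of none, and M2631 held the highest level of Irf9 and the lowest of Isg15 and Ifit3. Over the 6 libraries, which hold both genotypes, the Pearson correlation of log2 CPM was 0.91 for Irf1 and Ifit1, 0.72 for Irf1 and Irf7 and 0.71 for Stat2 and Isg15. It was -0.85 for Irf9 and Rsad2 and -0.83 for Irf9 and Ifit3. The rank (Spearman) correlations of these pairs, in the same order, were 0.71, 0.71, 0.60, -0.54 and -0.54. The lowest rank correlation of all pairs was -0.89, for Irf1 and Ifit3, whose Pearson correlation was -0.48. These values describe 6 points. The libraries differ in depth and tissue composition, and the part of these differences in the correlations was not tested.

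**Figure D4:**
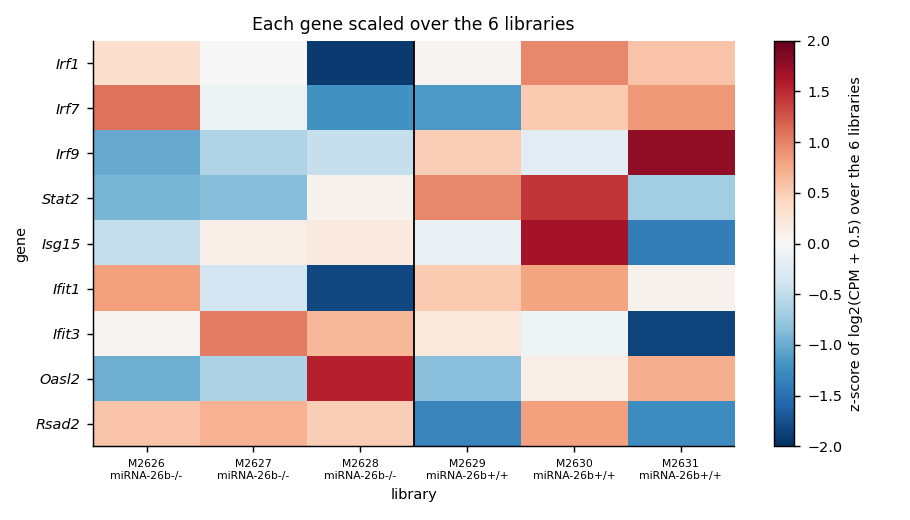
Log2 of CPM plus 0.5 for each gene (rows), scaled to a mean of 0 and an SD of 1 over the 6 libraries (columns), with knock-out libraries left of the line. Red and blue are mixed within each genotype, with M2628 at -1.91 for Irf1 and 1.56 for Oasl2.

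Per length of exon, the level over all 6 libraries was highest for Isg15 (mean 5.73 CPM per kb), followed by Irf1 (5.50), Ifit3 (4.18), Irf9 (4.11), Stat2 (2.18), Irf7 (1.72), Oasl2 (1.58), Ifit1 (1.46) and Rsad2 (0.682). The length takes all annotated exons of a gene together. For Irf7 it was 3776 bases, the whole span of the gene, and for Irf9 5386 of 6460 bases. The order thus depends on the annotation, and the level of Ifit3 lacks the reads that aligned equally to Ifit3b. The ranges over libraries of neighbours in this order overlapped, except between Irf9, with at least 3.63 CPM per kb, and Stat2, with at most 2.74 CPM per kb. The largest ratio between libraries was that of Ifit3, 10.5-fold between M2627 and M2631, apart from Ifit1 with its library at 0. The ratio was 5.12 for Isg15, 3.55 for Irf1 and 3.47 for Rsad2. For Isg15 and Rsad2 both ends of the range were wild type libraries.

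Genes outside the group were ranked by the Pearson correlation of their log2 CPM with the mean scaled level of the 8 genes other than Irf1, over 6 libraries. Of 11670 genes with a mean of at least 5 CPM, the nearest were Ezh1 (0.97), Lpin3 (0.96), Rit1 (0.96), Zfp747 (0.96) and Eda (0.95). Their rank (Spearman) correlations were 0.77, 0.71, 0.83, 0.83 and 0.43. Of the 73 further genes of the interferon pathway in this ranking, 0 were among the first 100. As these 73 are a small part of the 11670 genes, that count is no result about them. The nearest, Stat3, was at position 188 (Pearson 0.77, Spearman 0.03). The mean scaled level was 0.63 in M2630 and between -0.22 and -0.06 in the other 5 libraries, so the ranking rests largely on M2630.

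The rest of the interferon pathway was described from 132 genes listed by role, of which 98 were tested and 23 had no count in any library. An unadjusted p-value under 0.05 was found for 6 of the 98 genes, 3 higher and 3 lower in knock-out mice, which is close to the share over all genes tested (6.47%), and none passed after adjustment (edgeR). The median log2 fold change of the 98 genes was 0.07, with 55 above 0 and 43 below. The groups did not overlap for 3 genes higher and 3 lower in knock-out mice, against 11.5% of all genes tested. The count of 6 was between 0 (without M2630) and 10 (without M2628) with single libraries left out, and 3 with limma voom, settings in which 778, 1692 and 847 of all genes had such a p-value. With edgeR's earlier quasi-likelihood method the count was 4, and 802 of all genes had such a p-value.

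The interferon genes themselves were close to silent: 20 of 21 ligand genes, Ifnb1, Ifng and the interferon alpha genes among them, had no count in any of the 6 libraries, and Ifnk had 11 counts in M2631 only. Among the receptors and Janus kinases the lowest level was that of Ifnlr1, a chain of the interferon lambda receptor, with 1.52 CPM in knock-out and 1.09 CPM in wild type mice. Of 9 tested, 1 had an unadjusted p-value under 0.05, Jak1, with 109 CPM in knock-out and 143 CPM in wild type mice (log2 fold change -0.39, unadjusted p = 0.0411, edgeR). The groups of Jak1 overlapped, and its unadjusted p-value was not under 0.05 without M2626, M2627, M2630 or M2631. Ifngr2, a chain of the interferon gamma receptor, had a log2 fold change of 0.27. Among 8 other STAT and IRF factors 0 had an unadjusted p-value under 0.05 with edgeR, and the most abundant, Stat3, had a log2 fold change of -0.27.

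Of 15 nucleic acid sensors and adaptors tested, 1 had an unadjusted p-value under 0.05. Tbk1, the kinase that activates Irf3 downstream of the sensors, had 668, 432 and 363 counts in knock-out and 891, 891 and 856 in wild type libraries. The groups did not overlap, and the log2 fold change was -0.82 (standard error 0.301, unadjusted p = 0.0156, adjusted p = 0.736, edgeR). The unadjusted p-value of Tbk1 was not under 0.05 without M2627 or M2630. Traf3 and Mavs, the most abundant genes of this list, had log2 fold changes of -0.21 and -0.15.

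Among 35 other type I stimulated genes tested, 23 had a positive and 12 a negative log2 fold change, with a median of 0.07. The most abundant, Ifitm2 and Ifi27, had log2 fold changes of -0.02 and 0.12. Mx1, which encodes a dynamin-like antiviral protein, was the 1 gene of this list counted above at an unadjusted p-value under 0.05. It passed the filter on low counts only through M2627 and M2628, so its place in that count is no evidence of a difference. Its counts were 0, 87 and 48 against 0 in all 3 wild type libraries. The mean knock-out level was 13.97-fold above the same floor of 3 counts. That mean rests on M2627 and M2628, as M2626 also had no count.

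Of 22 interferon gamma stimulated genes tested, 13 were above 0 and 9 below, with a median log2 fold change of 0.26, and 2 had an unadjusted p-value under 0.05. Ciita, the master regulator of class II antigen presentation, had 102, 97 and 211 counts against 54, 41 and 27, with groups that did not overlap (log2 fold change 1.77, standard error 0.728, unadjusted p = 0.0278, edgeR). The unadjusted p-value of Ciita was not under 0.05 with limma voom or edgeR's earlier quasi-likelihood method, nor without M2628, M2630 or M2631. Gbp2, a guanylate-binding protein and the most abundant of the list, had 1307, 1102 and 1570 counts against 1190, 613 and 667 (log2 fold change 0.73, standard error 0.278, unadjusted p = 0.0197, edgeR). The groups of Gbp2 overlapped, and its unadjusted p-value was not under 0.05 without M2626, M2628, M2630 or M2631. Tap2, a peptide transporter subunit, had a log2 fold change of -0.06.

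The enzymes that attach and remove the Isg15 protein were listed apart. Usp18, the protease that removes Isg15 and restrains the interferon receptor, had 69, 52 and 24 counts in knock-out and 99, 137 and 176 in wild type libraries. Its groups did not overlap (log2 fold change -1.49, standard error 0.693, unadjusted p = 0.0483, adjusted p = 0.769, edgeR). The unadjusted p-value of Usp18 was not under 0.05 with DESeq2, limma voom or edgeR's earlier quasi-likelihood method. Nor was it without M2627, M2628, M2630 or M2631. Ube2l6 and Herc6, which conjugate Isg15, had log2 fold changes of -0.0035 and 0.20, and Uba7, the enzyme that activates it, had one of 0.93 (unadjusted p = 0.137, edgeR). None of the 5 pathway inhibitors tested had an unadjusted p-value under 0.05 with edgeR, and Pias1 and Ptpn2, the most abundant, had log2 fold changes of 0.17 and 0.21. Those of Socs1, Socs3 and Ptpn6 were -0.56, -0.41 and -0.34, and the median of the list was -0.34.

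**Figure D5:**
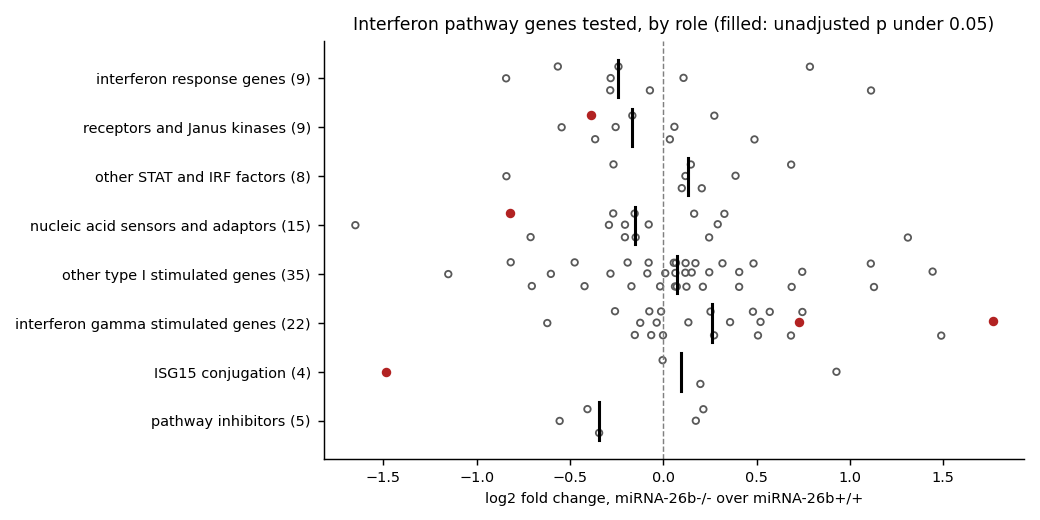
Log2 fold change of knock-out over wild type mice (horizontal axis) for each tested gene of the interferon pathway, in rows by role with the number of genes, black lines marking medians and filled points an unadjusted p-value under 0.05. Mx1, whose wild type libraries are all at 0, is counted but not drawn, and the medians lie between -0.34 (pathway inhibitors) and 0.26 (interferon gamma stimulated genes).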

How the data were processed

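Total RNA of the aorta was prepared with the TruSeq RNA kit and sequenced, 1 library for each mouse. The deposited values are raw read counts per gene name. The authors made them with STAR on GRCm38 and featureCounts 1.6.4 over GENCODE M21 exons, per the file headers, ignoring strand, counting a read once for each gene it overlaps and setting no option to keep reads with several alignments. A second deposited table holds log2 CPM and the authors' own comparison and was not used. Genes over 1 CPM in at least 2 libraries and with 2 or more counts in all were normalized by TMM and tested with edgeR 4.0.16 in R 4.3.3 (glmQLFit with legacy set to FALSE, glmQLFTest, prior count 0.125), two-sided, with Benjamini-Hochberg adjustment over all genes tested. That option was set after the counts of genes under both methods had been seen. Alternatives used DESeq2 1.42.0, limma 3.58.1, other normalizations and filters, and each library left out in turn. The procedure was tested on simulated data. Counting error alone sets the floor of 3 counts, and PCR copies of a molecule cannot be recognized. Named genes are the 9 genes, the overlapping Gm17334 and near copy Ifit3b, in each pathway list the 2 most abundant genes and those with an unadjusted p-value under 0.05, and the 5 genes nearest by correlation. The value of 1 gene named by this rule is not reported here. Rnf31 and Phrf1 were named after exon overlaps were seen, and Ifnlr1, Uba7, Socs1, Socs3, Ptpn6 and the ligands after their values were seen. The 9 genes and all lists were chosen with earlier results of these data known.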

Additional observations from a re-analysis of the deposited data

How the results depend on the processing

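Of the 9 genes, 0 had an adjusted p-value under 0.05 in any of the alternatives run. Replicates carry numbers in accession order only, and no paired analysis was possible because the labels give no number that links a knock-out mouse to a wild type mouse. With single libraries left out, the number of these 9 that reached an unadjusted p-value under 0.05 ran from 0 to 2 (Ifit1 and Ifit3 without M2626), that of pathway genes from 0 to 10, and that of all genes from 686 (without M2631) to 1692 (without M2628). With limma voom the first count was 1 and the count of pathway genes 3. The earlier quasi-likelihood method of edgeR, the default of this version, was run first and gave 802 genes in all, 4 of them pathway genes. The later method was made the reported one, and the earlier one an added alternative, after both counts had been seen. The sign turned for Isg15 with limma voom (0.038) and without M2630 (0.53), for Oasl2 with limma voom (-0.014), without M2628 (-0.54) and without M2629 (-0.12), and for Irf7 without M2628 (0.14), M2630 (0.01) or M2631 (0.12). With single libraries left out, log2 fold changes ran from -0.69 to 0.53 for Isg15, from -0.54 to 0.36 for Oasl2, from -0.34 to 0.14 for Irf7, from -2.41 to -0.28 for Ifit1 and from 0.64 to 1.58 for Ifit3. Irf1, Irf9, Stat2, Ifit1, Ifit3 and Rsad2 kept their sign in all 15 alternatives. The cause was not tested. Ifit1 moved to -2.96 with limma voom, where M2628 had no read of the gene. Isg15, Ifit1, Ifit3, Oasl2 and Rsad2 had at most 516 counts in a library and varied several-fold within a genotype.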
